A study of Mus musculus with 2 samples.

Results

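The genes described here are 10 imprinted genes expressed in the adrenal gland: Peg3, Snrpn, Plagl1, Grb10, Impact, Mest, Nnat, Ndn, Zrsr1 and Sgce. They were picked by gene symbol, and each symbol matched 1 of 55536 annotated genes. Of 141767 annotated transcripts, 87 belonged to them. All 10 genes had a level of at least 1 TPM, a relative measure per length of transcript, in both libraries. The same held for 23.1% of all annotated genes and for 53.5% of nuclear protein-coding genes. The 10 genes were chosen as expressed in this gland, with earlier results of these data known. Their count therefore follows from the choice and is no result beside these shares.

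An imprinted gene is expressed mainly from the copy inherited from one parent, because the maternal and paternal copies carry different DNA methylation, laid down in the egg or the sperm at an imprinting control region. All members but Grb10 are known as paternally expressed genes. Grb10 is expressed from the maternal copy in most tissues and from the paternal copy in neurons. Many imprinted genes act on fetal and early postnatal growth and on hormone-producing and neural tissue, and several are turned down in most organs after the juvenile period. The tables used here give 1 value per gene or transcript, with the parental copies not told apart.

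The RNA was from adrenal glands of female B6CASTF1/J mice aged 2 months, an F1 hybrid of the C57BL/6J and CAST/EiJ strains, with no treatment or engineered allele in the labels. The labels give 1 group with biological replicates 1 and 2, here animal 1 and animal 2, each with 1 library of ribosomal RNA reduced total RNA made from 300 ng. The labels conflict on the animals: one description gives both libraries the same mouse number and another gives them different numbers, and the biological replicate numbers were followed. With 2 libraries in 1 group no test between conditions could be made. Swapping the labels of 2 single libraries leaves the size of their difference unchanged, so a two-sided permutation test of them gives no information. Differences between the animals are therefore given as values.

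The libraries held 34517566 and 36234838 expected counts, estimated reads that need not be whole. Markers of both parts of the gland were present. The summed level of 9 steroidogenic cortex genes was 16836 TPM in animal 1 and 19270 TPM in animal 2, all 9 at 1 TPM or more in both. The summed level of 10 chromaffin cell genes of the medulla was 2119 and 1829.9 TPM, all 10 at 1 TPM or more in both. Other tissue was present unequally: 6 brown fat genes summed to 653 and 1270 TPM, 5 kidney genes to 19.9 and 0.46 TPM, with Kap, Slc34a1 and Umod at 0 counts in animal 2, and 5 liver genes to 179 and 114 TPM. The part of these in the results was not tested. In a whole gland, fewer cells of a type and less RNA per cell cannot be told apart.

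By mean TPM the 10 genes fell in the order Impact, Grb10, Sgce, Ndn, Nnat, Peg3, Zrsr1, Mest, Snrpn and Plagl1. The mean ± SD (n = 2) ran from 33.9 ± 9.89 TPM for Impact, rank 1945 among nuclear protein-coding genes, to 1.88 ± 0.474 TPM for Plagl1, rank 10827. Several neighbours in this order were not separated by their values: the ranges over the animals overlapped for Impact and Grb10, for Sgce and Ndn, for Nnat and Peg3, and for Peg3 and Zrsr1. Plagl1 stood below all others in both animals, at 1.54 and 2.21 TPM against 9.79 and 10.7 TPM for Snrpn, the next above it. A second transcript table, made by the authors from the reads with another method, gave the same order except that Zrsr1 came before Peg3. Its TPM were higher for all 10 genes, from 1.39 times for Peg3 to 2.48 times for Impact, so levels are compared here only within a table.

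**Figure D1:**
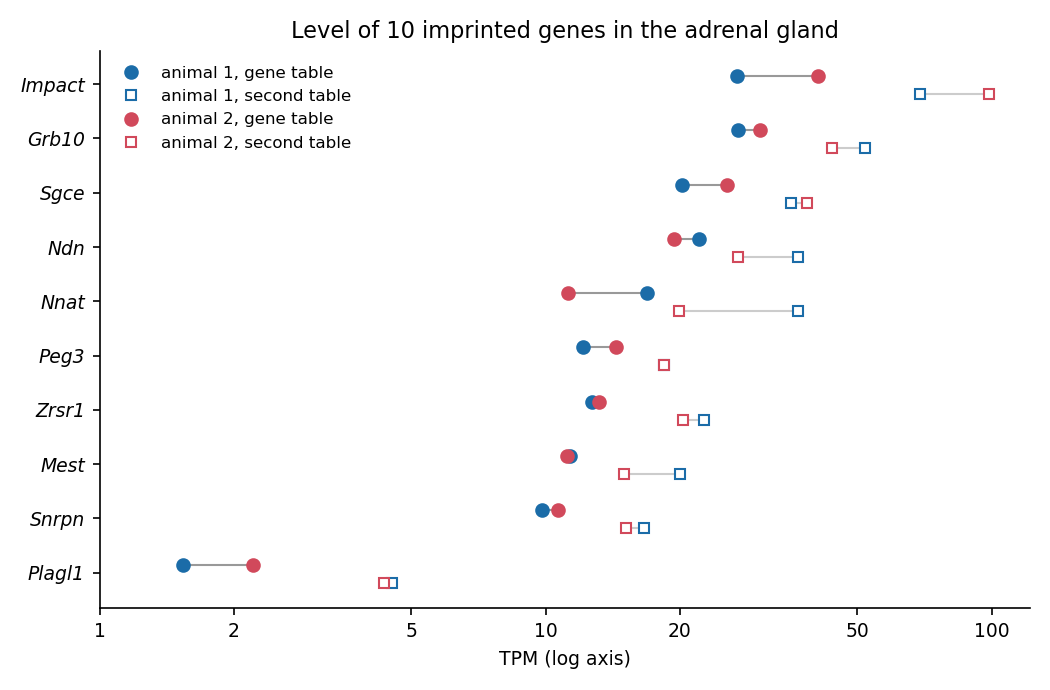
TPM of each gene on a log axis, with filled circles for the gene table and open squares for the second table, 1 colour per animal and lines joining the animals. Plagl1 lies apart from the other 9 genes in both tables, and Impact and Nnat show the widest gaps between the animals in the gene table.

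Grb10 encodes an adaptor protein that binds the activated insulin and IGF1 receptors and restrains their signalling. It lay at chr11:11930508-12038683 on the minus strand (mm10, as for all positions here) and held the most counts of the 10 genes, 4337 in animal 1 and 4068 in animal 2. Its level was 26.9 TPM in animal 1 and 30.2 TPM in animal 2, while the scaled counts were 1.08-fold higher in animal 1. TPM and counts thus pointed opposite ways, and the difference was small in both.

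Grb10 transcripts start at 8 annotated sites or groups of sites within 500 bases. The site at 12037401, the start of the 17-exon transcript Grb10-201, held 88.7% and 75.8% of the gene's TPM in the first transcript table and 95.5% and 92.1% of its counts. In the second table it held 68.8% and 64.8% of TPM. The site at 12027971 lies downstream of it inside the gene and held 1.34% and 3.05% of TPM in the first table and 3.59% and 3.33% in the second. A group of starts from 12026732 to 12026324 held 3.68% and 16.9% of TPM in the first table and 8.24% and 10.7% in the second. Of its short transcripts, Grb10-207, of 430 bases, had 0.55 and 4.91 TPM in the first table on 6.34 and 53.7 counts. In the second table Grb10-207 was at 0 and the 940-base Grb10-209 held the group's share. The site at 11970642, of the 2048-base Grb10-202, held 0.595% and 0% in the first table and 8.29% and 10.5% in the second. The leading start was therefore the same in both animals and both tables, and the shares of the minor ones depended on the table.

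The leading start and the downstream start at 12027971 have RefSeq promoter windows of unlike base composition, shown because most Grb10 counts fell on the leading one. The 250 bases before each RefSeq start are printed in the direction of transcription from RefSeq's GRCm38.p6 table. The window before the leading start is chr11:12037421-12037670 and that before the downstream start is chr11:12027972-12028221, both on the minus strand. Capitals mark nothing here, as no copy of the searched motif TGCCGC (or GCGGCA, its other strand) lies wholly in the bases printed.
Grb10, leading start: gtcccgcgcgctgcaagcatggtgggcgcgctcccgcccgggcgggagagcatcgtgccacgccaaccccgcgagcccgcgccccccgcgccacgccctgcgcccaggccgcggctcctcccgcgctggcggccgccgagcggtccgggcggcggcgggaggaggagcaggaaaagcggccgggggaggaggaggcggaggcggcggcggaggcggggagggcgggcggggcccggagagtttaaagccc
Grb10, downstream start: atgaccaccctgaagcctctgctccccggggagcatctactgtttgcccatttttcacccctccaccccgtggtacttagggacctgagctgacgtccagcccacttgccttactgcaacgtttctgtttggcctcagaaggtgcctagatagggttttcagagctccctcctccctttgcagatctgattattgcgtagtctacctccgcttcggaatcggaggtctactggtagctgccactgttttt
Over 300 bases, from 250 before to 50 after the start, the leading window was 80.0% G and C with 45 CpG and an observed to expected CpG ratio of 0.973, a higher ratio than in 92.5% of 32851 RefSeq windows. The downstream window was 52.3% G and C with 9 CpG and a ratio of 0.446. Over its 300 bases the leading window held 1 copy of the motif, which is not wholly in the bases printed. The downstream window held none.

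Ddc, the gene of aromatic amino acid decarboxylase and the neighbour of Grb10 at 32363 bases, is also imprinted in some tissues. It had 22.1 TPM in animal 1 and 16.0 TPM in animal 2, and its scaled counts were 1.49-fold higher in animal 1.

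Plagl1, also called Zac1, encodes a zinc finger transcription factor that restrains proliferation and acts on other imprinted genes. It lay at chr10:13060504-13131694 on the plus strand and had 200 counts in animal 1 and 250 in animal 2, at 1.54 and 2.21 TPM. The scaled counts were 1.24-fold higher in animal 2, a log2 ratio of 0.31 with a 95% interval of 0.03 to 0.58 that covers counting error only. In the second table the TPM were 4.53 and 4.34, so the direction of the TPM was not the same. Of 25 annotated transcripts, Plagl1-202, of 5260 bases, held 70.1% and 60.4% of TPM and 97.7% and 91.1% of counts in the first table, and 43.1% and 46.0% of TPM in the second. The start group it belongs to, which holds 22 of the transcripts, took 100% and 85.1% of TPM in the first table and 89.3% and 91.2% in the second. At this depth the other transcripts rested on a few counts each: Plagl1-222, with 13.1% of TPM in animal 2, had 5.13 counts there and 0 in animal 1.

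Peg3 encodes a large zinc finger protein that binds DNA and is known for effects on growth and maternal behaviour in mice. It lay at chr7:6703892-6730431 on the minus strand, with 3087 counts in animal 1 and 3109 in animal 2, the second most of the 10 genes. Its level was 12.1 and 14.4 TPM. After scaling the counts were nearly equal, with a log2 ratio of -0.01, and 98.1% of all genes with a mean of 100 counts or more had a larger fold between the animals. Its long transcript Peg3-201, of 8694 bases, held 93.1% and 92.0% of its counts. Peg3-202, a 733-base transcript annotated as a target of nonsense-mediated decay, held 12.1% and 21.7% of TPM on 1.06% and 2.10% of counts in the first table, and 0.145% and 11.6% of TPM in the second. The neighbours of Peg3 in its imprinted domain were far lower. Usp29, whose start lies 146 bases from that of Peg3 on the other strand, had 0.65 and 0.42 TPM, and Zim1 had 1.13 and 1.48 TPM.

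Impact encodes an inhibitor of the kinase GCN2, which slows translation when amino acids run short. It lay at chr18:12955852-12992950 on the plus strand. Its level was 26.9 TPM in animal 1 and 40.9 TPM in animal 2, a ratio of 1.52. Its counts, 1965 and 2343, differed less: scaled, they were 1.18-fold higher in animal 2 (counting interval 1.11 to 1.25). The TPM given to each count was 0.0137 in animal 1 and 0.0174 in animal 2. TPM per count was higher in animal 2 for all 10 genes, from 1.03 times for Nnat to 1.275 times for Impact, and was 1.06 times for Ndn, which has a single transcript. The signal recognition particle RNA 7SL took 33.1% of all TPM in animal 1 and 20.4% in animal 2, and its part in this was not tested.

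In the first table the forms of Impact differed in how far apart the animals were. The long form Impact-201, of 3763 bases and 11 exons, had 13.4 and 15.5 TPM on 1722 and 1879 counts, close in both animals. The short form Impact-202, of 687 bases, had 1.94 and 16.3 TPM on 39.8 and 317 counts, with a deposited posterior SD of 32.9 and 52.0 counts. Another short form, Impact-208, of 591 bases, went the other way, with 8.16 and 2.66 TPM. In the second table Impact-202 had 11.9 and 20.4 TPM on 106 and 214 counts, a smaller gap. There the 509-base Impact-204, at 0 in the first table, held 31.7% and 37.6% of TPM on 4.49% and 7.79% of counts, below Impact-201 in animal 1 (33.5%) and above it in animal 2 (21.2%). By counts Impact-201 led in both tables, with 87.6% and 80.2% in the first and 86.5% and 77.7% in the second. Osbpl1a, next to Impact on the other strand, had 18.3 and 17.2 TPM, and Hrh4 on its other side had 0 counts in both libraries.

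Mest, also called Peg1, encodes a protein with the alpha/beta hydrolase fold that is high in embryonic mesoderm and in expanding fat. It lay at chr6:30723547-30748465 on the plus strand, with 861 counts in animal 1 and 779 in animal 2. Its level was 11.4 and 11.2 TPM, and scaled counts were 1.12-fold higher in animal 1. These values lay close together, and 51.2% of genes with 100 counts or more had a larger fold. The start group around 30738050, that of the 12-exon Mest-211, held 98.4% and 87.9% of TPM in the first table and 81.4% and 97.1% in the second. A group of starts upstream of it, from 30733454 to 30733506, took 0% and 10.2% in the first table and 16.4% and 0.0502% in the second. The tables thus placed upstream reads in different animals: Mest-210 had 0 and 86.3 counts in the first table, with a posterior SD of 29.3 and 71.5, and 51.8 and 0.44 counts in the second.

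The window before the leading Mest start is shown because it held more copies of the motif searched than any other member's window. TGCCGC is the hexamer that the zinc finger protein ZFP57 binds when its CpG is methylated, and ZFP57 keeps the methylation of imprinting control regions in the embryo. The window is chr6:30737800-30738049 on the plus strand, from RefSeq's GRCm38.p6 table, and capitals mark the motif, here as its other strand GCGGCA.
Mest, leading start: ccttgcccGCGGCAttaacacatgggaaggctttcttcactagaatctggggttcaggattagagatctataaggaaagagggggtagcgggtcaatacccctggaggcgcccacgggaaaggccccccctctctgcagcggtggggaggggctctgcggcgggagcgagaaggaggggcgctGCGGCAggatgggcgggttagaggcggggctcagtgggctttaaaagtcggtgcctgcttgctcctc
This window held 2 copies, and 1.53% of all RefSeq windows held 2 or more. It was picked for its copies out of 14 member windows, so that share does not measure how rare the finding is. The match is of letters in a window and is no measure of binding. Copg2, which overlaps the end of Mest on the other strand, had 25.8 and 21.6 TPM, 2.27 and 1.93 times the TPM of Mest.

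Nnat encodes neuronatin, a small proteolipid of the endoplasmic reticulum known from neurons and endocrine cells, where it acts on calcium and on hormone processing. It lay at chr2:157560078-157562522 on the plus strand. It had 627 counts in animal 1 and 404 in animal 2, at 16.9 and 11.3 TPM. The scaled counts were 1.57-fold higher in animal 1, with a counting interval of 1.38 to 1.78. This was the one member over 1.5-fold apart between the animals, a size reached in either direction by 14.4% of 17308 genes with a mean of 10 counts or more. Of all genes 7.39% were that much higher in animal 1 and 6.99% in animal 2. Among genes with a mean of 100 counts or more, a limit that all 10 members passed, 4.39% had a larger fold.

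Several marker lists stood on the same side. Of the 10 chromaffin genes 9 were higher in animal 1 in scaled counts, at a median log2 ratio of -0.34, and Npy was the exception. All 5 neuron genes were higher in animal 1, and their sum was 21.7 and 16.3 TPM with none at 0. So did 5 of 5 liver genes (median -0.90), 5 of 5 kidney genes, 4 of 5 Schwann and sustentacular cell genes (median -0.43) and 4 of 5 macrophage genes (median -0.27). Other lists stood on the opposite side, with more genes higher in animal 2. These were brown fat (6 of 6, median 0.97), red blood cell (4 of 5, 0.41) and white fat (4 of 6, 0.18). They also included cortex (6 of 9, 0.12), endothelium (4 of 5, 0.10) and stroma and capsule (4 of 7, 0.02). The part of any of these lists in the Nnat difference was not tested. Blcap, the gene in whose span Nnat lies on the other strand, had 25.8 and 34.0 TPM and was 1.22-fold higher in animal 2 in scaled counts, the opposite direction. The library kit named in the labels is directional, and the sources used here do not state whether counting used strand, so reads of such overlapping pairs cannot be told apart with certainty.

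Neuronatin is known in a long form and a short one that lacks an internal coding exon. That exon, of 81 bases, lies at chr2:157561213-157561293. A transcript called Nnat-210 keeps only its first 27 bases. The sequence is shown, plus strand, from the GENCODE M21 transcript Nnat-202, with the part kept in Nnat-210 in capitals, because the tables disagreed on it.
Nnat, internal coding exon: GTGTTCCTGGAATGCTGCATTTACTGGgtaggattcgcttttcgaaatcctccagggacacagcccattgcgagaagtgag
In the first table, transcripts with the whole exon held 70.6% and 65.4% of the TPM of transcripts spanning it, those without it held 22.0% and 30.5%, and Nnat-210 had 0 counts, with a posterior SD of 14.3 and 21.5. In the second table, Nnat-210 led with 63.2% and 51.7%, the whole exon was in 27.1% and 38.5%, and transcripts without it held 1.56% in animal 1 and 1.58e-06% in animal 2. Within each table the animals were closer to each other than the tables were for the same animal, and the balance of long and short forms therefore could not be given from these tables.

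Ndn encodes necdin, a MAGE family protein that promotes neuronal differentiation and survival and restrains cell division, from the region whose human counterpart is lost in Prader-Willi syndrome. It lay at chr7:62346569-62350262 on the plus strand as 1 transcript of 1 exon, so its counts are not split among forms. It had 2768 counts in animal 1 and 2300 in animal 2, at 22.0 and 19.4 TPM. The scaled counts were 1.22-fold higher in animal 1 (counting interval 1.15 to 1.29), and 26.7% of genes with 100 counts or more had a larger fold. Ndn and Nnat were the members with lower TPM and lower scaled counts in animal 2 beyond the quartiles of all genes, which lay at log2 ratios of -0.22 and 0.19. Magel2, a MAGE family gene 26747 bases away, had 0.48 and 0.58 TPM, and Mkrn3, a ring finger gene, had 0.4 and 0.27 TPM. In the same imprinted region Ndn was thus expressed at many times the level of these neighbours.

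Snrpn encodes SmN, a core protein of spliceosomal small nuclear ribonucleoproteins that replaces its close relative SmB in neurons. It lay at chr7:59982495-60140219 on the minus strand. It had 627.5 counts in animal 1 and 645.96 in animal 2, at 9.79 and 10.7 TPM. The scaled counts were 1.02-fold higher in animal 2, with a counting interval from 0.910 to 1.14 that includes equality.

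Snrpn shares its messenger RNA with Snurf, an upstream reading frame annotated as a gene of its own. The first table gave Snurf 139 and 82.0 counts, at 34.0 and 21.2 TPM, and the second table gave it 0. Added together, Snrpn and Snurf had 767 and 728 counts in the first table, near the 721 and 753 that the second table gave Snrpn alone. Snurf took 18.1% and 11.3% of the summed counts but 77.6% and 66.6% of the summed TPM, since its annotated transcript is short. The sum was 1.06-fold lower in animal 2, against 1.02-fold higher for Snrpn by itself, so the direction for this messenger RNA was not settled. Gm38393, annotated as protein-coding, overlaps Snrpn on the same strand. It had 70.4 and 54 counts in the first table and 99.8 and 75.5 in the second. Snhg14, the long RNA that follows Snrpn and hosts small nucleolar RNAs, had 1.08 and 1.20 TPM.

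The tables placed Snrpn on different starts. All of its counts in the first table, 100%, were on Snrpn-201, which starts at 60005111, and all in the other, 100%, were on Snrpn-202, which starts 135108 bases upstream at 60140219. Each table gave the other transcript 0, and the posterior SD of Snrpn-202 in the first was 8.85 and 10.5 counts. The promoter near Snrpn-201 is the imprinting centre promoter, and upstream starts are known mainly from brain. The 250 bases before the RefSeq starts nearest to both are printed from RefSeq's GRCm38.p6 table in the direction of transcription, on the minus strand, because the choice between them is what the tables disagreed on. They are chr7:60005200-60005449 and chr7:60140226-60140475.
Snrpn, downstream start: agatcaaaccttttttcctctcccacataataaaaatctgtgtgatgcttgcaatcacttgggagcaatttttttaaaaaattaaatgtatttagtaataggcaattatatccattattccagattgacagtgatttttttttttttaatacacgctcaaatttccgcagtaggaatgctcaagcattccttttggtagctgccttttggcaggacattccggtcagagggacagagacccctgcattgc
Snrpn, upstream start: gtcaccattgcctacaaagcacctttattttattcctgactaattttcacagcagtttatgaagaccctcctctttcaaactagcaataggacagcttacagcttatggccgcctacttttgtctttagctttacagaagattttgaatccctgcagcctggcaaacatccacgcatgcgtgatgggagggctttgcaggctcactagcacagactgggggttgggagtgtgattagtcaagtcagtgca
The longest run of bases that these sequences share is 7. The upstream one shares a run of 34 bases with the window of a further RefSeq start at 60450177 and a run of 32 with that of a start at 60047978, so the upstream windows resemble each other. Over the 300-base windows the observed to expected CpG ratio was 0.574 for the downstream start and 0.174 for the upstream one. The downstream window held 1 copy of TGCCGC or its other strand, which does not lie wholly in the bases printed, and the upstream one held none.

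Zrsr1 is a retrogene that encodes a zinc finger RNA-binding protein. It lay at chr11:22972005-22976496 on the plus strand, inside the span of Commd1, which runs on the other strand. It had 1108 counts in animal 1 and 1048 in animal 2, at 12.7 and 13.2 TPM. Scaled, its counts were 1.07-fold higher in animal 1, with a counting interval from 0.981 to 1.16 that includes equality. The protein-coding Zrsr1-201, 1 exon of 4492 bases, held 71.7% and 69.4% of counts. Zrsr1-202, a 1287-base model annotated as a transcribed processed pseudogene that lies within it, held 59.4% and 62.0% of TPM on 28.3% and 30.6% of counts. The second table gave nearly the same shares, 62.5% and 66.2% of TPM for Zrsr1-202, so for this gene animals and tables were close. Commd1 had 35.7 and 30.1 TPM, and its scaled counts were 1.25-fold higher in animal 1. Gm28048, also on the other strand across Zrsr1, had 1085 and 1194 counts in the first table but 421 and 0.739 in the second, and is uncertain.

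Sgce encodes epsilon-sarcoglycan, a membrane protein of the dystrophin-associated complex outside striated muscle as well as in it. It lay at chr6:4674350-4747207 on the minus strand. It had 1137 counts in animal 1 and 1325 in animal 2, at 20.2 and 25.4 TPM. Scaling left 1.15-fold higher counts in animal 2, with a counting interval of 1.06 to 1.25. Peg10, a retrotransposon-derived gene whose start lies 98 bases from that of Sgce on the other strand, had 116 and 144 TPM. That is 5.72 and 5.68 times the TPM of Sgce, nearly the same in both animals, and the scaled counts of Peg10 were 1.17-fold higher in animal 2, on the same side as Sgce.

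Of 13 Sgce transcripts, Sgce-205 held 83.6% and 68.1% of TPM in the first table and 50.9% and 45.2% in the second. Sgce-207, which lacks an internal coding exon of 123 bases, held 0.742% and 22.8% in the first table and 33.4% and 48.5% in the second. The first table rested on 7.26 and 273 counts for Sgce-207, with a posterior SD of 48.8 and 83.6, so its value in animal 1 was under its own SD. The exon, at chr6:4719374-4719496 on the minus strand, is printed from the GENCODE M21 transcript Sgce-205 in the direction of transcription, because these shares turn on it.
Sgce, internal coding exon: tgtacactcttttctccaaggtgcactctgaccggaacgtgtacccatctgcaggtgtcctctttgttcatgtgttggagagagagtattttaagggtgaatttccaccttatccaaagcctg
It was in transcripts with 99.3% and 76.8% of the TPM spanning it in the first table and with 66.2% and 50.9% in the second. In both tables the share with the exon was lower in animal 2, by unequal amounts and on 1 library each.

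**Figure D2:**
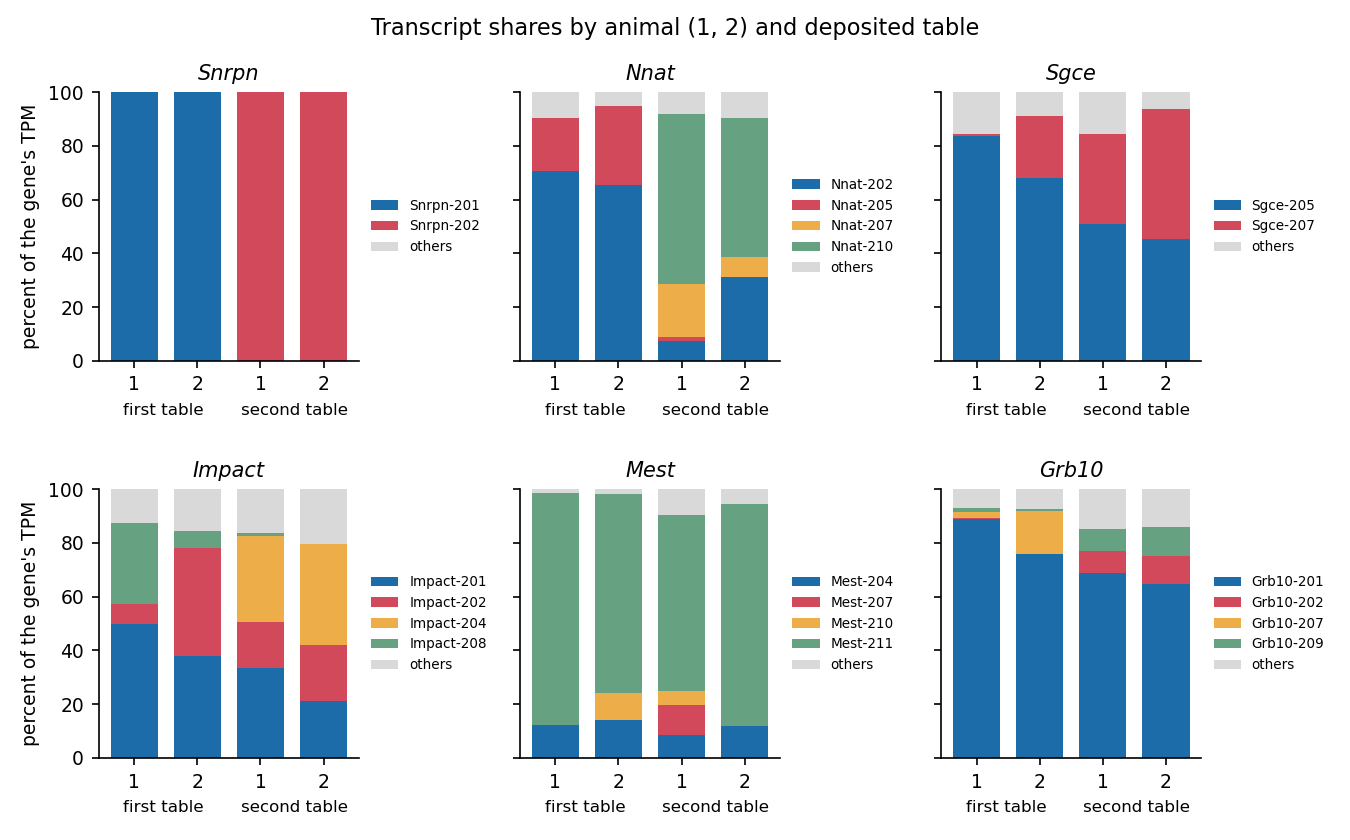
Percent of each gene's TPM per transcript, as stacked bars for animal 1 and animal 2 in the first and the second deposited transcript table, with transcripts under 10% in every column pooled as others. Snrpn is 100% Snrpn-201 in one table and 100% Snrpn-202 in the other, while Grb10-201 leads in all 4 columns.

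By the mean share of TPM over the animals, 7 of the 10 genes had the same leading transcript in both tables, and Snrpn, Impact and Nnat did not. Single animals departed from this for Impact, where Impact-202 at 40.0% was above Impact-201 at 38.0% in animal 2 of the first table, and for Sgce, where Sgce-207 was above Sgce-205 in animal 2 of the second. The share of TPM in transcripts annotated as protein-coding was above 60% in both tables and animals for all but Zrsr1 and, in the second table, Plagl1. For Zrsr1 it was 40.6% and 38.0% in the first table, and for Plagl1 53.8% and 57.1% in the second. Transcripts with a retained intron held 10.4% and 8.99% of the TPM of Impact and Peg3 in animal 1, and 8.98% and 8.21% in animal 2.

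Between the animals, 4 members were higher in animal 2 in scaled counts and 6 in animal 1, where 47.9% of all 17308 genes were higher in animal 2. The 4 were Plagl1, Impact, Sgce and Snrpn. The median log2 ratio of the members was -0.05, beside -0.02 over all genes. The counting interval excluded equality for 7 members, beside 44.7% of the 17308 genes with a mean of 10 counts or more. These shares are not a like comparison, because the interval narrows with counts and the members had means of 225 to 4202.5 counts. Counting error is not the whole spread between these libraries: a chi-square of their counts over genes was 77.3 per degree of freedom. Genes with many counts weigh most in that value. For a member with few counts the counting error was wide, as for Plagl1 with its log2 interval of 0.03 to 0.58. Only Nnat, at -0.65, lay past 1.5-fold. The directions of Grb10, Mest, Peg3, Snrpn and Zrsr1 turned under at least 1 other scaling or table, and with spike-in scaling Nnat was no longer past 1.5-fold. That scaling shifted all genes: 8 members and 73.2% of all genes were then higher in animal 2, and 5 of the 10 members lay above the median of all genes, as they did before.

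**Figure D3:**
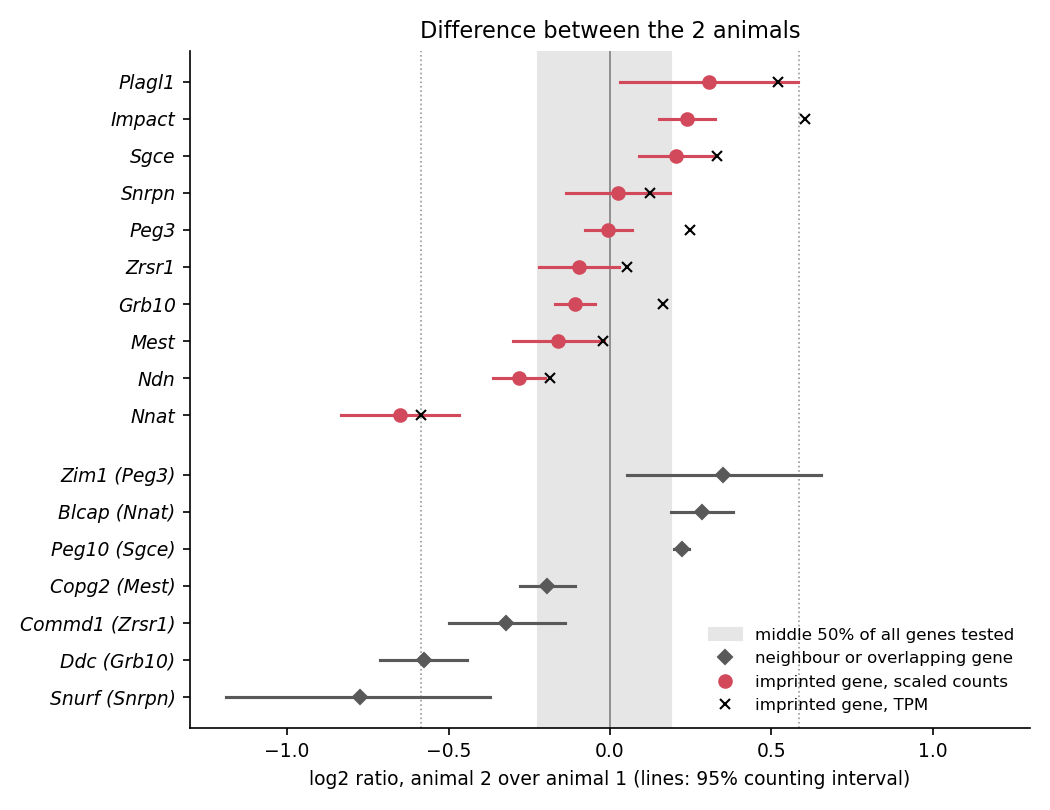
Log2 ratio of animal 2 over animal 1 in scaled counts with 95% counting intervals, for the 10 genes (circles) and neighbours or overlapping genes (diamonds, with the member in brackets), with the ratio of TPM as crosses. The grey band runs between the quartiles of all genes, dotted lines mark 1.5-fold, and Nnat at -0.65 is the one circle past them.

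Promoter windows of 300 bases were found in the RefSeq table for 8 of the 10 genes, 14 windows in all. The motif TGCCGC, searched on both strands, was in 6 windows of 5 genes, Grb10, Mest, Nnat, Plagl1 and Snrpn. It was in 11.6% of all windows and in at least 1 window of 13.1% of genes. No test was made of this, and windows of the same gene may overlap. The motif itself holds a CpG, and 10 of the 14 member windows were above the median CpG ratio of all windows. The shares are therefore not a like comparison. The observed to expected CpG ratio ran from 0.132 for the most upstream Snrpn start to 0.973 for the leading Grb10 start, beside a median of 0.384 over all windows. The windows at the starts of Nnat, Plagl1, Peg3 and Zrsr1 had ratios of 0.690, 0.696, 0.463 and 0.475. Of the 14 windows 10 were above the median of all windows and 4 below it, the latter being the upstream Mest window at 0.327 and the Snrpn windows at 0.257, 0.174 and 0.132. The 10 include the Ndn window, at 0.623. Its RefSeq start, 62348277, lies inside the Ndn exon, downstream of the transcript start at 62346569, and all 250 bases before it are exon.

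A list of 44 other imprinted genes is given beside these 10. Of the 44, 32 had 1 TPM or more in both libraries. The highest were Gnas, the gene of a stimulatory G protein subunit, at 728 and 962 TPM, and the long noncoding RNA Meg3 at 227 and 287 TPM. Dlk1, a membrane protein of the Notch ligand type, had 255 and 216 TPM, the cell cycle inhibitor Cdkn1c had 214 and 233 TPM, and the noncoding RNA Rian had 142 and 186 TPM. Each of these was above every one of the 10 genes in both animals. The median of the mean levels was 13.7 TPM for the 10 genes and 5.30 TPM for the 44. The 10 were chosen as expressed in this gland, while the 44 reached down to a mean of 0.01 TPM. The medians are therefore not a like comparison. With a mean of at least 10 counts, 40 of the 44 could be compared between the animals. Of these, 24 had higher scaled counts in animal 2 and 16 in animal 1, where 47.9% of all 17308 genes were higher in animal 2. The median log2 ratio of the 40 was 0.04. Over 1.5-fold apart were 3 of the 40, beside 14.4% of all genes. H19 and Kcnq1ot1 were higher in animal 2 and Mkrn3 in animal 1. Mkrn3 had only 34 and 22 counts, and its counting interval, -1.49 to 0.17 in log2, includes equality.

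**Figure D4:**
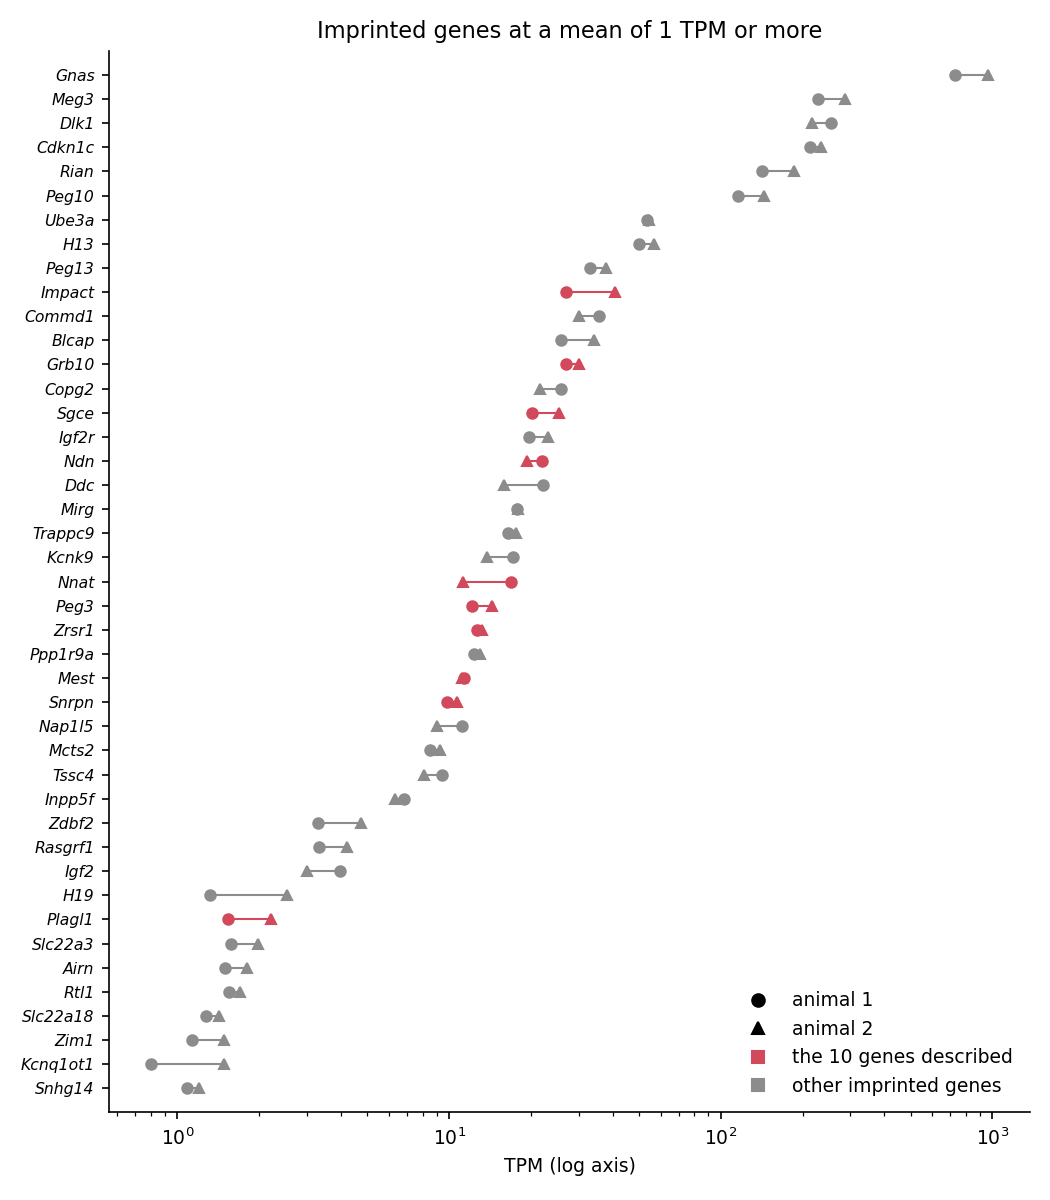
TPM of the 10 genes (red) and of other imprinted genes with a mean of at least 1 TPM (grey) on a log axis, with a circle for animal 1 and a triangle for animal 2. The 5 highest genes, from Gnas to Rian, lie above 140 TPM in both animals, while the red genes lie between 1.54 and 40.9 TPM.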

How the data were processed

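Total RNA of adrenal gland was measured in 2 libraries of 34517566 and 36234838 expected counts. Per a text deposited with the tables, all used mm10 and GENCODE M21. Transcriptome alignments gave the gene table and the first transcript table, and reads with a transcript index gave the second. Programs, versions, filters and strand setting are not given in the sources used here. Deposited by the authors were expected counts (estimated reads) and TPM in each table, and in the first transcript table the percent of a gene's TPM per transcript. The column names, per the file headers, also give a posterior SD of counts.

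From these, counts were rounded for scaling only. Libraries were scaled by edgeR's TMM method (edgeR 4.0.16, R 4.3.3), with DESeq2 1.42.0 size factors, total counts, spike-ins, TPM and the second table as alternatives. Log2 ratios used a prior of 0.5 counts and genes with a mean of 10 counts or more. Intervals at 95% are exact Clopper-Pearson intervals on scaled ratios, for counting error only. The ratio steps were tested on simulated data. Each symbol was matched to its GENCODE identifier. All 10 genes are named, with the 5 highest other imprinted genes. Of 33 transcripts with at least 10% of a gene's TPM in a library and table, only some are named. Likewise only some of the neighbours that overlap or adjoin the members are named. Kap, Slc34a1, Umod, Npy, H19, Kcnq1ot1 and Mkrn3 were named after their values were seen. Transcript starts within 500 bases were grouped. The members and lists were chosen with earlier results of these data known. Rows that name no gene, 26249 of them with 5.79 and 1 counts, stayed out. No comparison between groups was made, because the labels give 1 group.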

Additional observations from a re-analysis of the deposited data

How the results depend on the processing

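The count of members at 1 TPM or more in both libraries was 10 with the second table and, leaving out either library, 10 and 10; at a minimum of 10 TPM it was 8. The count of members higher in animal 2 was 4, and became 8 with spike-in scaling and 7 with the ratio of deposited TPM, settings in which 73.2% and 62.2% of all genes were higher in animal 2; members above the median of all genes numbered 5, 5 and 6. The median log2 ratio of the members, -0.05, became 0.15 with spike-in scaling and 0.14 with TPM. These settings also moved the median of all genes, from -0.02 to 0.19 and to 0.11; relative to it the members lay at -0.04, -0.03 and 0.03. The count over 1.5-fold apart, 1, was 0 with spike-in scaling. With TPM it was again 1, but the gene was Impact, at a log2 ratio of 0.604, in place of Nnat. Nnat, at -0.5845 with TPM, lay only just under the limit of 1.5-fold. Total counts, median-of-ratios factors, the second table's counts, prior counts of 5 and 0.01 and other count filters left these values close. The sign of the log2 ratio was kept in all settings for 5 of 10 genes, Impact, Sgce, Plagl1, Ndn and Nnat (-0.71 to -0.44), and turned in at least 1 for Grb10, Mest, Peg3, Snrpn and Zrsr1. Summing Snrpn with Snurf was added after seeing the data. The ratio of the animals has no value with 1 library left out. No paired analysis was possible because the labels give 1 group. Depth limits Plagl1, whose described transcripts rest on under 10 counts each apart from Plagl1-202.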

Other observations

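Rows of small RNAs inside the genes described held few or no counts: Mir335, in the span of Mest, and Gm23134, in the span of Nnat, were at 0 counts in both libraries in the gene table, and Gm26407, in the span of Impact on the same strand, had 1 and 4. Gm32061, a long intergenic RNA annotated across Ndn on the other strand, was at 0 counts in the gene table and at 2.06 and 3.11 counts in the second table.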
